A study of Mus musculus with 32 samples.

Results

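BCL11b-positive DN1 cells of the mouse thymus at E19.5 were sorted by ID2, and the BCL11b+ID2+ and BCL11b+ID2- populations were compared by RNA-seq. Each population had 3 libraries, numbered 1, 2 and 4 in the labels, so 6 of the 32 libraries of the series carry the comparison. The members are all genes with a normalised count of at least 10 in at least 3 of the 18 E19.5 libraries, 13840 of the 26244 genes in the table. Both populations were flow-sorted from the embryonic thymus of the strain that the labels call 5x polychromILC. The labels name the same strain for both populations and do not list its alleles. The further E19.5 populations, with 3 libraries each, were BCL11b-ID2+, BCL11b-ID2-, BCL11blowID2low and DN2. Whether replicate libraries derive from different animals is not stated, and the p-values therefore reflect spread among libraries that may be technical. In bulk samples such as these, fewer cells of a type and less RNA per cell cannot be told apart.

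Thymocytes without CD4 and CD8 pass through DN1 before DN2. BCL11b is a zinc-finger transcription factor that thymocytes switch on as they commit to the T lineage, and that group 2 innate lymphoid cells (ILC2s) also need. ID2 binds E proteins, the basic helix-loop-helix factors that drive T-lineage genes from E-box motifs, and keeps them off DNA; it is a hallmark of innate lymphoid cells. ILC2s respond to alarmins such as IL-33 and to lipid and neuropeptide signals with type 2 cytokines, and carry no rearranged antigen receptor at their surface. The fetal thymus also makes waves of gamma-delta T cells, several of which are programmed there to make IL-17.

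Values are the deposited DESeq-normalised read counts. A gene is called where the Benjamini-Hochberg adjusted p of the limma test is under 0.05, log2 differences are on the log2(value + 1) scale and are given ± SE, and folds are ratios of mean values. The BCL11b+ID2+ libraries held 3111749, 5244101 and 9178293 reads, and the BCL11b+ID2- libraries held 3536909, 4949248 and 6493344. Mitochondrial genes took 43.4 to 60.2% of the reads in BCL11b+ID2+ libraries and 43.3 to 54.9% in BCL11b+ID2- libraries. Spearman correlations over the tested genes were 0.880 to 0.904 among BCL11b+ID2+ libraries, 0.850 to 0.905 among BCL11b+ID2- libraries and 0.747 to 0.841 between the populations. BCL11b+ID2- replicate 1 stood apart from its 2 fellow libraries, at -93.0 on the third principal component against -30.7 and -30.4. Macrophage markers also moved with the populations. The summed normalised count of 14 macrophage, monocyte and granulocyte markers was 1636, 643 and 747 in BCL11b+ID2+ replicates 1, 2 and 4, against 15.6, 62.1 and 60.0 in BCL11b+ID2- replicates 1, 2 and 4.

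Id2 followed its gate, while Bcl11b differed between populations that are both BCL11b-positive. Id2 (chromosome 12, 25093799 to 25097140, GRCm38) had 961, 1174 and 1221 normalised counts in BCL11b+ID2+ libraries, against 1.74, 32.1 and 24.9 in BCL11b+ID2- libraries. The libraries did not overlap, and the log2 difference was 6.39 ± 0.74 (adjusted p = 3.28e-06). Bcl11b (chromosome 12, 107910403 to 108003602) had 409, 539 and 596 normalised counts in BCL11b+ID2+ libraries, against 2076, 1476 and 1469 in BCL11b+ID2- libraries. All BCL11b+ID2+ values lay below all BCL11b+ID2- values, with a log2 difference of -1.70 ± 0.50 (adjusted p = 0.0349). This call was lost when any of the 6 libraries was left out, with adjusted p between 0.0633 and 0.138.

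The DN1 label was read against the genes of the surface markers that define the stage. Il2ra, which encodes CD25, the marker that DN1 cells lack and DN2 cells carry, had 2626, 2259 and 2038 normalised counts in BCL11b+ID2+ libraries, against 83.3, 60.0 and 118 in BCL11b+ID2- libraries. DN2 libraries averaged 7825. Il2ra therefore lay between BCL11b+ID2- and DN2 in the BCL11b+ID2+ libraries, and CD25 is also a constitutive receptor of ILC2s. Cd44, which encodes an adhesion receptor of DN1 cells, averaged 2218 ± 374 in BCL11b+ID2+ and 776 ± 249 in BCL11b+ID2- (SD, n = 3 each). Kit, the stem cell factor receptor of early thymocyte progenitors, averaged 1201 ± 59.3 and 173 ± 40.8 in the same order of populations. Cd4 transcripts averaged 129 in BCL11b+ID2+ and 48.4 in BCL11b+ID2-, and were not called (adjusted p = 0.422).

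Promoters are shown for a pair of genes that were higher in BCL11b+ID2+ (Il1rl1 and Il13) and a pair that were lower (Gzma and Cd3d), because ID2 acts on factors that bind E-boxes. Each line is the 250 bases before the RefSeq start of the gene on GRCm38.p6, 5′ to 3′ on the gene's strand, with every E-box (the letters CANNTG, which read the same on both strands) in capitals. For a gene with several starts only the first listed was used, as for Il1rl1, which had 2. The windows are chr1:40429320-40429569 (plus strand) for Il1rl1, chr11:53634703-53634952 (minus strand) for Il13, chr13:113100982-113101231 (minus strand) for Gzma and chr9:44981536-44981785 (plus strand) for Cd3d.
Il1rl1: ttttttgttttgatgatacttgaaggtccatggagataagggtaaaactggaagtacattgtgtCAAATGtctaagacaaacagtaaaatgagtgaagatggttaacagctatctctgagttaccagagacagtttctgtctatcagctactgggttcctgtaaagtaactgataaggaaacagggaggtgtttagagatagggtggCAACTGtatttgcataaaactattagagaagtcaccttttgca
Il13: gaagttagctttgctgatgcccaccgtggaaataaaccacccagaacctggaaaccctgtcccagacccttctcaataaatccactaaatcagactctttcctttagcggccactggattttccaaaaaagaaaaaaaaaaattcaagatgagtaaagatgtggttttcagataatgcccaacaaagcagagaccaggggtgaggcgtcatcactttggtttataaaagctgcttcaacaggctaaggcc
Gzma: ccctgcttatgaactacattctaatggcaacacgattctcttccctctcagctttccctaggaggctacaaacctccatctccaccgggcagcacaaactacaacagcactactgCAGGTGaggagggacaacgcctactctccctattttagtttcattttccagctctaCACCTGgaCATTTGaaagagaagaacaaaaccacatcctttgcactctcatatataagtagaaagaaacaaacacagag
Cd3d: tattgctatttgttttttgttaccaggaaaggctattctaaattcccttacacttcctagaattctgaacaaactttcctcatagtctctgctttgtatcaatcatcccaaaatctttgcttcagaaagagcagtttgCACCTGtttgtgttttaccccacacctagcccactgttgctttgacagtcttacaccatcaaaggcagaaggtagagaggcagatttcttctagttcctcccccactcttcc

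The Il1rl1 window held 2 E-boxes, 186 and 43 bases before the start, the Gzma window 3, at 135, 79 and 71 bases, and the Cd3d window 1, at 112 bases, while the letters were not in the Il13 window. At least 1 CANNTG stood in 61.8% of the 521 promoters of genes called higher and in 58.3% of the 355 of genes called lower, against 56.8% of the 9262 promoters of all tested genes with an entry. The letters CACCTG or its reverse complement CAGGTG, which the Gzma window held at 2 places and the Cd3d window at 1, stood in 15% of higher, 16.6% of lower and 14.7% of all promoters. CAGCTG stood in 11.5%, 15.2% and 11.3% of the same sets. Of the genes named in the text, 139 of 200 matched a promoter entry.

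Between the populations, 1208 of 13840 genes were called (8.73%), 708 higher (5.12%) and 500 lower (3.61%) in BCL11b+ID2+. The count of calls in each gene list below stands against these shares of 5.12% and 3.61%. The libraries of the populations did not overlap for 3250 genes (23.5%), with BCL11b+ID2+ above for 1693 (12.2%) and below for 1557 (11.2%). For 743 genes (5.37%) a call came with separate libraries and with 100 or more normalised counts on average in the higher population, and the 15 with the largest log2 difference in each direction are all given below. The median log2 difference over all tested genes was 0.00. Counts in both directions depended on single libraries. Without BCL11b+ID2- replicate 1, 510 genes were called higher and 307 lower. Without BCL11b+ID2+ replicate 4, the counts were 514 higher and 333 lower. The filter reached 438 genes only through the BCL11b+ID2+ libraries, of which 85 were called higher, and 487 only through the BCL11b+ID2- libraries, of which 57 were called lower.

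**Figure D1:**
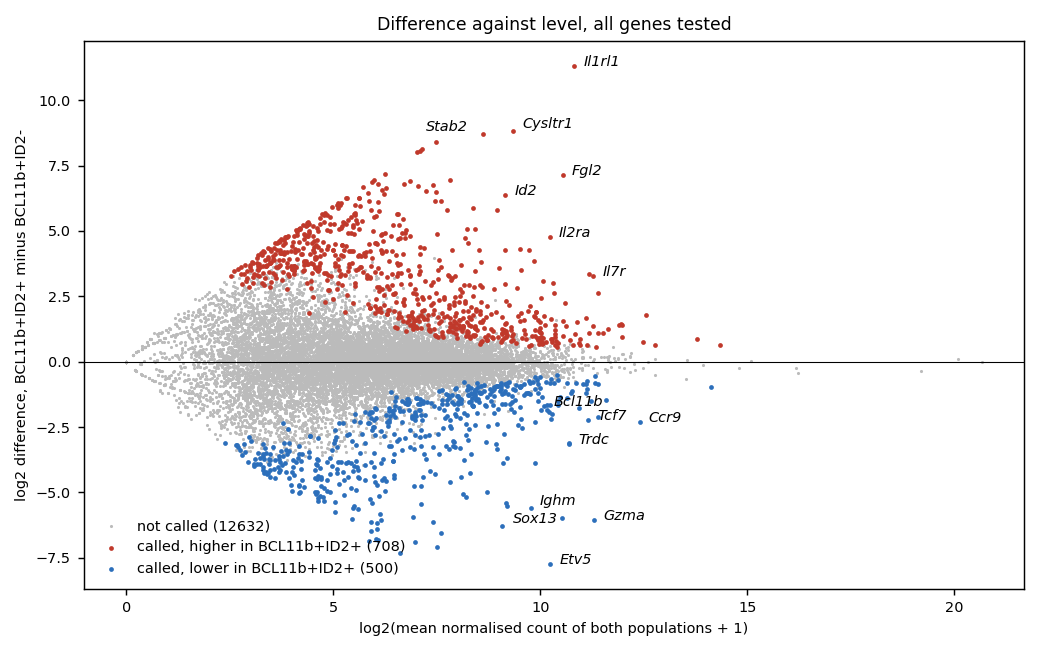
Log2 difference (BCL11b+ID2+ minus BCL11b+ID2-) against the log2 mean normalised count of both populations for the 13840 genes tested, each point a gene, with 708 genes called higher and 500 called lower in colour. Il1rl1 lies at the top with a log2 difference of 11.32 and Etv5 at the bottom with -7.72.

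Of 20 tested ILC2 surface receptors, 12 were called higher and 1 lower in BCL11b+ID2+, and the median log2 difference was 3.12, against 0.00 over all genes. Il1rl1 (chromosome 1, 40429570 to 40465415), which encodes the IL-33 receptor ST2, had 3187, 3755 and 3931 normalised counts in BCL11b+ID2+ libraries, against 0, 0 and 1.84 in BCL11b+ID2- libraries. The BCL11b+ID2- libraries held 2 reads between them, and the other E19.5 populations averaged between 1.73 and 132. Il1rl1 stands next to Il18r1 and Il18rap, the subunit genes of the IL-18 receptor, which reach from 40465552 to 40551705 on the same strand of chromosome 1. Il18r1 averaged 761 ± 91.7 in BCL11b+ID2+ and 213 ± 85.8 in BCL11b+ID2-, and Il18rap averaged 586 ± 129 and 26.9 ± 13.9 in the same populations. Il1r1, the IL-1 receptor gene upstream on the same chromosome, pointed the other way, with 112, 73.0 and 23.7 in BCL11b+ID2+ libraries against 434, 213 and 194 in BCL11b+ID2- libraries, and was not called (adjusted p = 0.0669). Of the 15 alternatives run, 6 called Il1r1 lower, among them edgeR and DESeq2, with an adjusted p down to 0.00478.

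Cysltr1, Ltb4r1 and Ptgdr2, receptors for lipid mediators, were called higher. Cysltr1 (chromosome X, 106574346 to 106603679), a receptor for cysteinyl leukotrienes, had 1068, 1297 and 1538 normalised counts in BCL11b+ID2+ libraries, against 0, 5.36 and 2.77 in BCL11b+ID2- libraries. No other E19.5 population averaged above 64.0. Ltb4r1, the high-affinity leukotriene B4 receptor, had 340, 200.1 and 144 against 1.74, 1.07 and 0 in the same libraries, a log2 difference of 6.92 ± 0.87 (adjusted p = 9.9e-06). Ptgdr2, the prostaglandin D2 receptor CRTH2, averaged 173 ± 29.8 in BCL11b+ID2+ and 22.5 ± 9.13 in BCL11b+ID2-. The Ptgdr2 call was lost without any of 4 of the libraries, with adjusted p up to 0.0948 without BCL11b+ID2- replicate 4.

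Nmur1 was called higher and Ramp1 lower among the receptors for neuropeptides. Nmur1, the neuromedin U receptor, had 48.1, 101 and 50.8 normalised counts in BCL11b+ID2+ libraries and no read in any BCL11b+ID2- library. Against a floor of 3 reads over that population it was at least 57.5-fold higher, and it averaged 0 to 0.482 in the other 4 populations. Nmur1, counted among the 12 receptors called higher, thus passed the filter only through the BCL11b+ID2+ libraries, where it is high. Ramp1, a subunit of the CGRP receptor, was the member called lower, with 40.9, 18.8 and 7.91 in BCL11b+ID2+ libraries against 142, 157 and 180 in BCL11b+ID2- libraries (log2 difference -3.04 ± 0.60, adjusted p = 0.00165). The peptide itself, encoded by Calca, is described with the effectors.

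The list also holds cytokine, costimulatory and inhibitory receptors. Il9r, the IL-9 receptor, averaged 205 ± 7.80 in BCL11b+ID2+ and 23.6 ± 17.2 in BCL11b+ID2-. Icos, a costimulatory receptor of T cells and ILC2s, had 112, 172 and 197 in BCL11b+ID2+ libraries against 19.1, 2.14 and 8.30 in BCL11b+ID2- libraries. Tnfrsf18, which encodes GITR, averaged 188 ± 18.5 against 7.20 ± 5.76, and Cd200r1, an inhibitory receptor, 143 ± 34.4 against 8.66 ± 6.97. Klrg1, a lectin-like receptor of activated and mature ILC2s, had 39.2, 44.2 and 33.6 in BCL11b+ID2+ libraries and no read in BCL11b+ID2- libraries. Il17rb, the IL-25 receptor subunit, had 703, 511 and 494 against 333, 165 and 231, which did not overlap, and was not called (adjusted p = 0.314). Ccr4 averaged 303 ± 104 in BCL11b+ID2+ and 634 ± 75.0 in BCL11b+ID2-, and was not called either (adjusted p = 0.543). Both were called with only the 6 libraries compared, with and without the replicate block, at adjusted p down to 0.0130 for Il17rb and 0.0209 for Ccr4. The macrophage marker sums given above moved in the same direction as this receptor group, and their part in it was not tested.

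**Figure D2:**
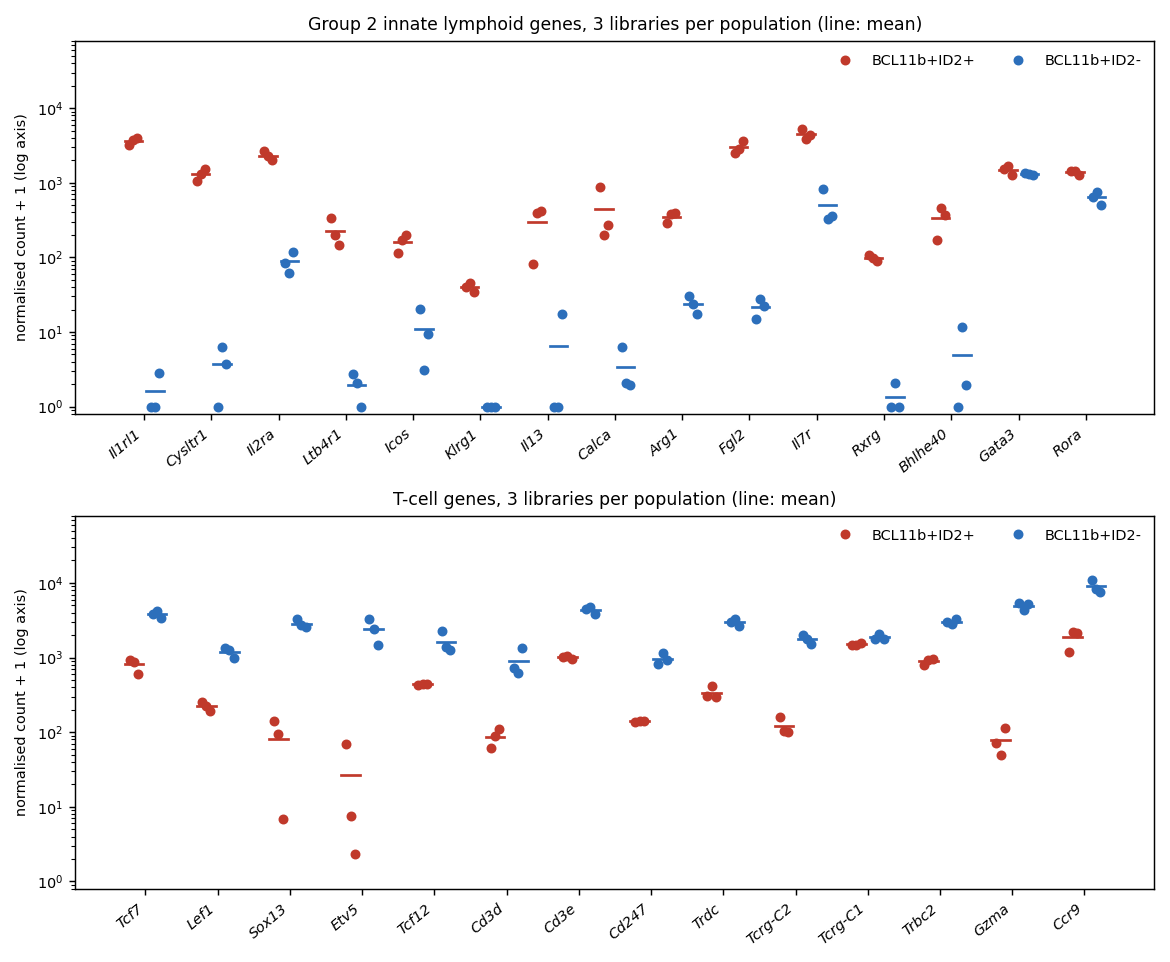
Normalised count + 1 on a log axis for 15 ILC2 genes (top) and 14 T-cell genes (bottom), with BCL11b+ID2+ libraries in red left of BCL11b+ID2- libraries in blue, 3 points and a line at the mean for each. Il1rl1 sits at 3187 to 3931 in BCL11b+ID2+ against at most 1.84 in BCL11b+ID2-, while Gata3 overlaps between the populations.

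ILC2 effector genes were higher where they were called, 6 of 13 tested, with a median log2 difference of 3.26. Il13 (chromosome 11, 53631324 to 53634702), a type 2 cytokine, had 80.1, 398 and 414 normalised counts in BCL11b+ID2+ libraries, against 0, 0 and 16.6 in BCL11b+ID2- libraries. BCL11b+ID2+ replicate 1 was the lowest of its population and still lay above every BCL11b+ID2- library (log2 difference 6.51 ± 1.34, adjusted p = 0.00234). Calca (chromosome 7, 114631478 to 114636357), which encodes CGRP and calcitonin, had 867, 196 and 274 in BCL11b+ID2+ libraries against 5.21, 1.07 and 0.922 in BCL11b+ID2- libraries, a log2 difference of 6.95 ± 0.94. Il4, at 29.9 in BCL11b+ID2+ and 5.77 in BCL11b+ID2-, and Hpgds, the hematopoietic prostaglandin D synthase, at 59.3 and 38.0, were not called (adjusted p = 0.211 and 0.334), though Il4 was with a pseudocount of 8 (adjusted p = 0.0177). Ptgir, the prostacyclin receptor, which the list also holds, averaged 202 ± 31.5 in BCL11b+ID2+ and 91.9 ± 71.9 in BCL11b+ID2- and was not called (adjusted p = 0.493). Il5, Csf2 and Areg did not pass the filter on low values and were not tested.

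Among the enzymes and secreted proteins of the list, Fgl2 (chromosome 5, 21372642 to 21378374), a fibrinogen-like immunoregulatory protein, had 2476, 2796 and 3648 normalised counts in BCL11b+ID2+ libraries, against 13.9, 26.8 and 21.2 in BCL11b+ID2- libraries. Its log2 difference of 7.13 ± 0.36 had an adjusted p of 9.34e-12. Arg1, the arginase of ILC2s and their thymic precursors, had 285, 376 and 391 against 29.5, 22.5 and 16.6 in the same libraries. Tph1, the first enzyme of serotonin synthesis outside the brain, had 48.1, 123 and 227 in BCL11b+ID2+ libraries and no read in BCL11b+ID2- libraries, and was at least 115-fold higher. Alox5ap, the 5-lipoxygenase activating protein, averaged 15.7 ± 9.28 against 0.922 ± 1.60. Its call was absent with a pseudocount of 8 and in both fits of only the 6 libraries (adjusted p up to 0.0909). Macrophages also express Fgl2 and Arg1, whose part in the difference through the higher macrophage marker sums was not tested.

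Lineage transcription factors split, with 10 of 41 tested members called higher and 11 lower, a median log2 difference of 0.18. The sorted genes Id2, among the higher, and Bcl11b, among the lower, are members, so part of these counts follows from the sort. Rxrg, a retinoid X receptor, had 105, 96.2 and 88.4 normalised counts in BCL11b+ID2+ libraries, against 0, 1.07 and 0 in BCL11b+ID2- libraries. With no read in the other 4 populations, Rxrg passed the filter only through the BCL11b+ID2+ libraries, and it is counted among the 10 called higher. Bhlhe40, a stress- and cytokine-responsive repressor, had 169, 464 and 371 against 0, 10.7 and 0.922, a log2 difference of 6.77 ± 0.71 (adjusted p = 7.82e-07). Ahr, the aryl hydrocarbon receptor, averaged 826 ± 277 in BCL11b+ID2+ and 118 ± 36.7 in BCL11b+ID2-. Pparg, the lipid-sensing nuclear receptor that ILC2s use, averaged 245 ± 76.8 against 27.8 ± 30.2. Zeb2 was 9.16-fold higher and Bcl11a, a factor of progenitors and B cells, averaged 28.9 in BCL11b+ID2+ against 0.307 in BCL11b+ID2-. Ikzf3, Zbtb7b and Prdm1 were also called, but these calls and that of Pparg were lost without single libraries, with adjusted p up to 0.121 (Ikzf3, without BCL11b+ID2+ replicate 1), 0.155 (Zbtb7b, without BCL11b+ID2+ replicate 2), 0.242 (Prdm1, without BCL11b+ID2- replicate 2) and 0.109 (Pparg, without BCL11b+ID2- replicate 1).

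The factors best known for ILC2 development were expressed in both populations. Gata3, which drives both T cells and ILC2s, had 1526, 1678 and 1258 normalised counts in BCL11b+ID2+ libraries, against 1343, 1290 and 1270 in BCL11b+ID2- libraries. The libraries overlapped and the log2 difference was 0.18 ± 0.24 (adjusted p = 0.753). Rora, the nuclear receptor that ILC2s depend on, had 1446, 1456 and 1285 against 646, 751 and 506. These libraries did not overlap, but the log2 difference of 1.15 ± 0.40 was not called (adjusted p = 0.0771). Rora was called higher under 5 of the 15 alternatives, edgeR and DESeq2 among them, with an adjusted p down to 0.00378. Zbtb16, the gene of PLZF in innate lymphoid precursors and innate-like T cells, averaged 148 ± 86.1 in BCL11b+ID2+ and 157 ± 49.0 in BCL11b+ID2- and overlapped. Ets1 averaged 2773 ± 152 against 3485 ± 310, and Maf 1028 ± 139 against 2019 ± 370, with adjusted p of 0.488 and 0.0645. Maf was called lower under the same 5 alternatives, with an adjusted p down to 0.00378.

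Tcf7, Lef1 and Sox13 were among the 11 factors called lower in BCL11b+ID2+. Tcf7 (chromosome 11, 52252371 to 52283014), which encodes TCF-1, had 936, 884 and 603 normalised counts in BCL11b+ID2+ libraries, against 3809, 4187 and 3342 in BCL11b+ID2- libraries. Lef1, its close relative, had 249, 226 and 189 against 1333, 1252 and 998. Sox13 (chromosome 1, 133382303 to 133424377), a gamma-delta T-cell factor, had 141, 94.0 and 5.94 in BCL11b+ID2+ libraries against 3323, 2696 and 2559 in BCL11b+ID2- libraries (log2 difference -5.97 ± 0.69, adjusted p = 3.47e-06). In none of these genes did the libraries overlap, and BCL11b+ID2+ replicate 4 was the lowest library in each.

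Etv5 (chromosome 16, 22381309 to 22439719), an ETS factor of gamma-delta T cells, had the largest negative log2 difference among the named genes, -7.72 ± 0.97. It had 69.4, 6.63 and 1.32 normalised counts in BCL11b+ID2+ libraries, against 3311, 2418 and 1467 in BCL11b+ID2- libraries. The other 4 E19.5 populations averaged between 10.7 and 82.5. Sox4, which acts with Sox13 in IL-17-making gamma-delta cells, averaged 25.2 ± 14.4 in BCL11b+ID2+ and 265 ± 56.8 in BCL11b+ID2-. Satb1, a chromatin organiser of thymocytes, was 2.68-fold lower, Ikzf2 (Helios) 2.82-fold lower and Ikzf1 (Ikaros) 1.80-fold lower. Tox, Tox2 and Runx1 were called lower as well, at 2.28, 7.25 and 1.49-fold, and their calls were lost without single libraries, with adjusted p up to 0.123 (Tox, without BCL11b+ID2+ replicate 4), 0.163 (Tox2, without BCL11b+ID2- replicate 2) and 0.183 (Runx1, without BCL11b+ID2+ replicate 4).

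Among the partners of ID2, 1 of 5 tested E-protein and related genes was called. Tcf12, which encodes the E protein HEB, had 429, 441 and 443 normalised counts in BCL11b+ID2+ libraries, against 2260, 1371 and 1262 in BCL11b+ID2- libraries. Its log2 difference was -1.85 ± 0.22 (adjusted p = 5.25e-06), and the 3 BCL11b+ID2+ libraries lay close together. Tcf3, which encodes E2A, averaged 166 ± 54.6 in BCL11b+ID2+ and 239 ± 31.6 in BCL11b+ID2- and was not called (adjusted p = 0.412). Tcf4, which encodes E2-2, averaged 116 ± 41.7 against 189 ± 30.5 (adjusted p = 0.244). Id3, the other Id protein of thymocytes, which receptor signalling induces, had 32.0, 22.1 and 98.3 against 234, 187 and 250. Its libraries did not overlap and it was not called (adjusted p = 0.0878). Under 4 of the 15 alternatives, DESeq2 among them, Id3 was called lower, with an adjusted p down to 0.00578.

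Of 27 tested CD3 complex and receptor signalling genes, 10 were called lower, 1 was called higher and 16 were not called, with a median log2 difference of -1.12. Cd3d, Cd3e and Cd3g, which encode the CD3 chains, lie together on chromosome 9 between 44969572 and 45009627. Cd3d had 60.5, 87.3 and 108 normalised counts in BCL11b+ID2+ libraries, against 722, 621 and 1359 in BCL11b+ID2- libraries. Cd3e had 1018, 1044 and 945 against 4472, 4824 and 3890. Cd3g had 527, 548 and 521 against 767, 666 and 761, and with a log2 difference of -0.46 ± 0.36 it was not called (adjusted p = 0.533). These 3 genes thus had log2 differences of -3.34, -2.13 and -0.46, although the differences between the genes were not tested. Cd247, the zeta chain, had 137, 139 and 139 in BCL11b+ID2+ libraries against 831, 1153 and 917 in BCL11b+ID2- libraries.

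The list also holds signalling proteins and costimulatory receptors. Lat, the adaptor that the receptor phosphorylates, averaged 237 ± 59.4 in BCL11b+ID2+ and 665 ± 165 in BCL11b+ID2-. Lck, the kinase that starts receptor signalling, averaged 214 ± 25.4 against 469 ± 74.9. Cd27, a costimulatory receptor, averaged 533 ± 189.5 against 1442 ± 219.9. Rasgrp1, which links the receptor to Ras and is not on the list, averaged 1638 ± 222 against 4488 ± 658. Cd6 was 12.9-fold and Trat1 4.33-fold lower. Txk and Cd28 were called lower too, and lost the call without single libraries, with adjusted p up to 0.122 and 0.126, both without BCL11b+ID2+ replicate 2. Cd5, an inhibitory receptor of thymocytes, averaged 28.8 against 236 without a call (adjusted p = 0.112), and was called lower under 3 alternatives, with an adjusted p down to 0.0044. The member called higher was Ptpn22, a phosphatase that restrains receptor signalling, with 986, 704 and 756 in BCL11b+ID2+ libraries against 351, 179 and 245 in BCL11b+ID2- libraries (log2 difference 1.69 ± 0.39).

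Gamma and delta receptor segments were lower or not called. Of 20 tested segments, 9 were called lower, against 3.61% of all genes, and 15 lay below without overlap, against 11.2%. Their median log2 difference was -2.23. Trdc (chromosome 14, 54142851 to 54148868), the delta constant segment, had 306, 412 and 293 normalised counts in BCL11b+ID2+ libraries, against 3011, 3288 and 2613 in BCL11b+ID2- libraries (log2 difference -3.15 ± 0.27, adjusted p = 3.77e-08). Tcrg-C2 (chromosome 13, 19304649 to 19307551), a gamma constant segment, had 157, 103 and 99.6 against 2015, 1763 and 1502. Tcrg-C1 (chromosome 13, 19214103 to 19217024) was different, with 1494, 1494 and 1578 in BCL11b+ID2+ libraries against 1748, 2049 and 1799 in BCL11b+ID2- libraries. Its log2 difference was -0.29 ± 0.22 (adjusted p = 0.501), and its mean in BCL11b+ID2+ was 1522 ± 48.4 (SD, n = 3).

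Of 10 tested variable segments, 4 were called lower, Trgv2, Tcrg-V4, Trdv5 and Tcrg-V3, and 6 were not called. Trgv2 averaged 31.4 ± 9.97 in BCL11b+ID2+ and 599 ± 78.6 in BCL11b+ID2-, and Tcrg-V4 averaged 17.6 ± 7.23 and 431 ± 98.1 in the same populations. Trdv5 (chromosome 14, 54148662 to 54149294) had 0, 0 and 0.659 in BCL11b+ID2+ libraries against 159.7, 137 and 102 in BCL11b+ID2- libraries. Trdv5 overlaps the end of Trdc on the opposite strand, and with no strand stated for the counting, reads of Trdc and Trdv5 cannot be told apart there. Gamma segments also resemble each other in sequence, and how reads shared between them were counted is not given. The Tcrg-C3 call was lost without BCL11b+ID2- replicate 2 (adjusted p = 0.0515). Tcrg-C3, Tcrg-V3, Trdj1 and Trgj2 were called lower at means of at most 4.79 in BCL11b+ID2+ and of 19.4 to 63.3 in BCL11b+ID2-. Tcrg-C4, at 431 ± 87.1 against 983 ± 20.3, did not overlap and was not called (adjusted p = 0.198), although it was with only the 6 libraries compared (adjusted p down to 0.0055). The Tcrg-V3 call was absent under edgeR, DESeq2 and both fits of only the 6 libraries, with adjusted p up to 0.112, and the Trdj1 call under edgeR (adjusted p = 0.122).

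The variable segments without a call had adjusted p between 0.0671 and 0.990. Tcrg-V1 averaged 25.3 in BCL11b+ID2+ and 85.9 in BCL11b+ID2-, and Trdv2-2 averaged 10.8 and 66.3 in the same populations. Both were called lower with a pseudocount of 8, and Tcrg-V1 also by DESeq2, at adjusted p down to 0.0355 for Tcrg-V1 and 0.00412 for Trdv2-2. Tcrg-V6 averaged 26.2 against 66.2 and Tcrg-V7 51.5 against 83.1. Trdv4 averaged 91.5 against 97.3, and Tcrg-V5 15 against 19.7.

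Of 24 tested gamma-delta regulators and effectors beyond the receptor, 10 were called lower and 4 higher, with a median log2 difference of -1.68. Blk, a Src-family kinase of IL-17-making gamma-delta cells, had 28.5, 37.6 and 46.8 normalised counts in BCL11b+ID2+ libraries, against 715, 378 and 491 in BCL11b+ID2- libraries. Il17f had 3.56, 0 and 0 against 48.6, 67.5 and 165, and Il17a had 0, 7.74 and 0 against 33.0, 32.1 and 93.2. Il17a was not called by edgeR (adjusted p = 0.0682). 5830411N06Rik, which encodes a member of the scavenger receptor family with CD163L1, averaged 37.8 ± 32.6 in BCL11b+ID2+ and 1110 ± 164 in BCL11b+ID2-. Gpr83, a G-protein-coupled receptor, averaged 1.78 against 82.6, and Cd24a, the CD24 gene of immature thymocytes, averaged 46.2 ± 15.2 against 447 ± 143.

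The genes Ccr6, Lmo4, Tmem176a and Tmem176b, which the list places with IL-17-making cells, were called higher. Ccr6, a chemokine receptor, had 189, 443 and 421 normalised counts in BCL11b+ID2+ libraries, against 6.94, 9.64 and 15.7 in BCL11b+ID2- libraries. Lmo4, a LIM-domain cofactor of transcription, had 1690, 1296 and 1169 against 34.7, 71.8 and 127 (log2 difference 4.3 ± 0.44, adjusted p = 6.6e-07). Tmem176a and Tmem176b, a neighbouring pair of membrane protein genes, averaged 164 and 100.2 in BCL11b+ID2+ against 55.5 and 27.4 in BCL11b+ID2-. Both Tmem176 calls were lost without single libraries, with adjusted p up to 0.0971 (Tmem176a, without BCL11b+ID2+ replicate 1) and 0.0653 (Tmem176b, without BCL11b+ID2- replicate 1). Among 16 tested type 3 ILC and type 17 genes, 5 were called higher (Ccr6, Tmem176a, Tmem176b, Ahr and Kit) and 3 lower (Il17a, Il17f and Cxcr5).

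Alpha-beta receptor and thymocyte genes gave 7 of 14 called lower, with a median log2 difference of -1.80. Trbc1 and Trbc2, the beta constant segments, averaged 503 ± 67.7 and 892 ± 90.2 in BCL11b+ID2+, against 1792 ± 272 and 3035 ± 234 in BCL11b+ID2-. Their log2 differences of -1.83 and -1.77 were nearly the same, and the segments are so alike in sequence that reads may be shared between them. Ccr9, a chemokine receptor that draws cells to thymus and gut, had 1182, 2232 and 2163 against 11004, 8331 and 7567. Cd8a averaged 97.9 ± 25.9 in BCL11b+ID2+ and 437 ± 67.3 in BCL11b+ID2-, and Arpp21, an RNA-binding protein of thymocytes, 47.0 ± 15.1 against 484 ± 211. Trac, the alpha constant segment, averaged 28.4 against 247. The calls of Trac and Cd8a were lost without single libraries, with adjusted p up to 0.171 (Trac, without BCL11b+ID2+ replicate 4) and 0.0621 (Cd8a, without BCL11b+ID2+ replicate 2). Rag1, a subunit of the recombinase, had 194, 222 and 304 against 198, 196 and 251, and overlapped.

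**Figure D3:**
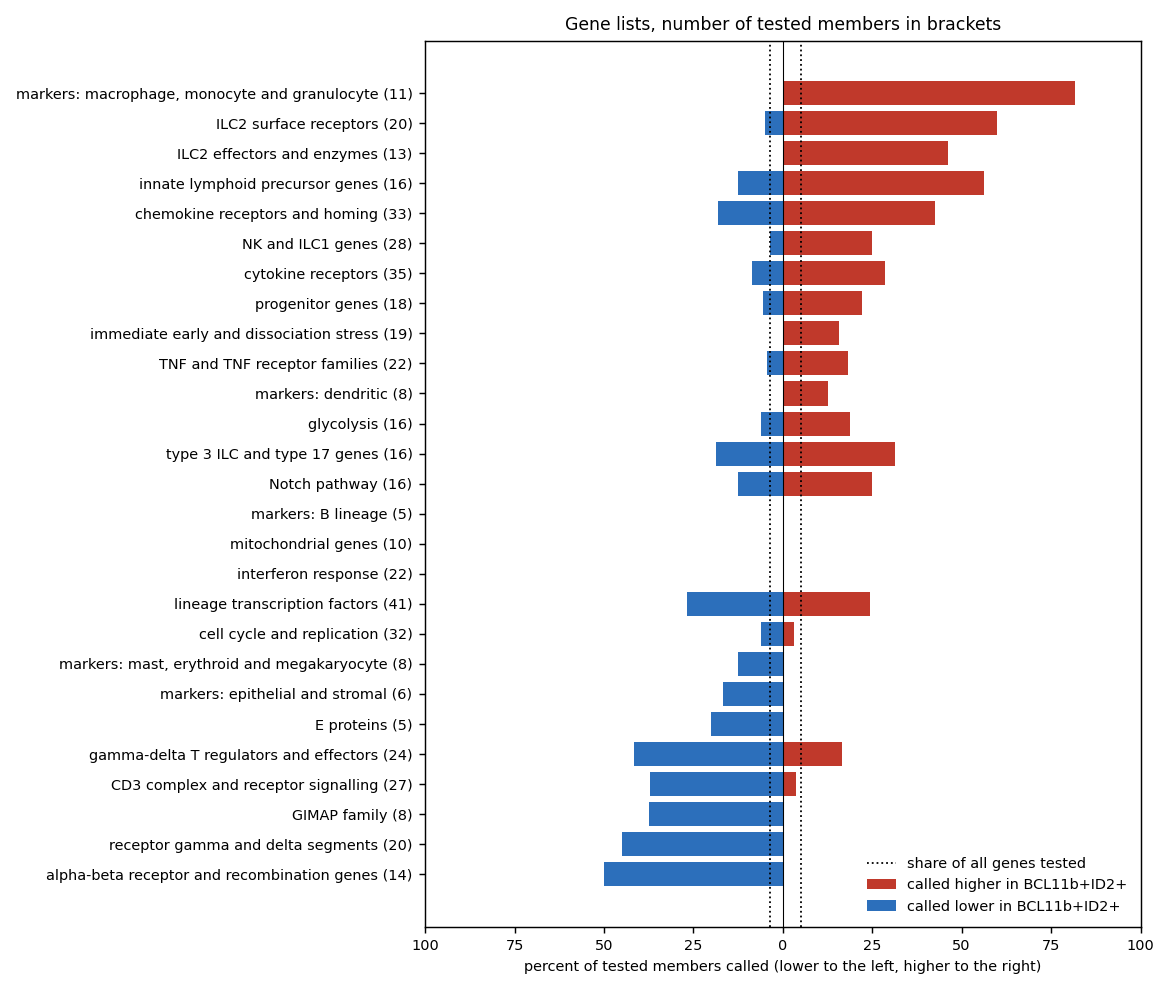
Percent of the tested members of each gene list called higher (red, right) or lower (blue, left) in BCL11b+ID2+, with the number of tested members in brackets and dotted lines at 5.12% and 3.61%, the shares over all genes. Macrophage markers (9 of 11) and ILC2 surface receptors (12 of 20) reach furthest to the right, alpha-beta receptor genes (7 of 14) furthest to the left.

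Notch pathway genes moved in both directions, 4 of 16 higher and 2 lower. Notch3, a receptor that Notch signalling itself raises in thymocytes, had 1.78, 1.11 and 0 normalised counts in BCL11b+ID2+ libraries, against 149, 110.3 and 129 in BCL11b+ID2- libraries (log2 difference -6.17 ± 0.78, adjusted p = 9.99e-06). Notch1, the receptor that starts the T-cell programme, averaged 331 ± 93.0 against 652 ± 255 and was called lower. That call was lost without single libraries, with adjusted p up to 0.197 without BCL11b+ID2- replicate 1. Notch2 was higher, with 595, 830.2 and 882 in BCL11b+ID2+ libraries against 245, 375 and 394 in BCL11b+ID2- libraries. Jag1, a Notch ligand, had 554, 608 and 738 against 104, 137 and 145. Lfng, a glycosyltransferase that modifies Notch receptors, averaged 258 ± 74.3 against 77.4 ± 38.5, and the target gene Hey1 averaged 85.3 against 3.88. The Hey1 call was lost without single libraries, with adjusted p up to 0.0908 without BCL11b+ID2- replicate 1. Hes1, another target, averaged 92.2 against 37.4 and was not called (adjusted p = 0.207), except by DESeq2 (adjusted p = 0.0343).

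Of 33 tested homing receptors, 14 were called higher and 6 lower. Ccr7 averaged 10.8 ± 16.9 in BCL11b+ID2+ and 121 ± 19.2 in BCL11b+ID2-, and Cxcr5 averaged 0.957 and 34.5. P2rx7, an ATP-gated channel, was 10.8-fold lower. P2ry10, a lysophospholipid receptor, was called lower at 2.36-fold, a call lost without single libraries, with adjusted p up to 0.0996 without BCL11b+ID2+ replicate 4.

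Among the homing receptors called higher, Cxcr6 had 1451, 1857 and 2483 normalised counts in BCL11b+ID2+ libraries, against 222, 251 and 192 in BCL11b+ID2- libraries. Ccr2 had 1310.3, 1573 and 1653 against 408, 500.3 and 311. Itga4, the alpha-4 integrin, had 1759, 2241 and 2612 against 394, 402 and 276 (log2 difference 2.62 ± 0.20, adjusted p = 4.8e-09), and Itgb7, which pairs with it, had 707, 1057 and 1487 against 305, 232 and 405. Gpr183, an oxysterol receptor, averaged 560 ± 73.0 against 100 ± 32.6, and S1pr4 averaged 421 ± 101 against 136 ± 50.2. Gpr15, a gut homing receptor, had 21.4, 9.95 and 23.1 against no read. Ccr10, Cxcr3, Xcr1, S1pr1 and Itga1 were called higher and lost the call without single libraries, with adjusted p up to 0.173 and 0.0740 (Ccr10 and Cxcr3, without BCL11b+ID2+ replicate 4), 0.235 and 0.109 (Xcr1 and S1pr1, without BCL11b+ID2- replicate 1) and 0.0893 (Itga1, without BCL11b+ID2- replicate 2). Macrophages and monocytes also express Ccr2, Itga4 and Gpr183, and the part of the macrophage marker sums in these differences was not tested.

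Cytokine receptors gave 10 of 35 called higher and 3 lower. Il7r (chromosome 15, 9505788 to 9530176), the IL-7 receptor alpha chain that lymphocytes need from their precursors on, had 5229, 3827 and 4333 normalised counts in BCL11b+ID2+ libraries, against 816, 329 and 352 in BCL11b+ID2- libraries. Il2rg, the common gamma chain, averaged 1832 ± 257 against 785 ± 41.4. Il6ra averaged 129 ± 35.7 against 12.3 ± 6.17 and Il10ra averaged 162 ± 77.2 against 25.4 ± 21.3, and both calls were lost without single libraries, with adjusted p up to 0.0574 (Il6ra, without BCL11b+ID2- replicate 1) and 0.239 (Il10ra, without BCL11b+ID2- replicate 4). Il21r, the IL-21 receptor, was lower, with 64.1, 22.1 and 70.6 in BCL11b+ID2+ libraries against 607, 235 and 438 in BCL11b+ID2- libraries. Ifngr1, the interferon-gamma receptor, was 2.27-fold lower, and Tgfbr1 2.18-fold, with an adjusted p of 0.0573 for Tgfbr1 without BCL11b+ID2- replicate 2. Il2rb, the IL-2 and IL-15 receptor beta chain, had 1175, 766 and 439 against 594, 418 and 462, overlapped and was not called (adjusted p = 0.391).

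Of 16 tested innate lymphoid precursor genes, 9 were called higher and 2 lower, with a median log2 difference of 1.90. The list includes the sorted gene Id2, so part of its count follows from the sort. Its other higher members were Itga4, Itgb7, Cxcr6, Il7r, Il18r1, Kit, Arg1 and Tnfrsf11a, the receptor for RANK ligand, which averaged 122 ± 43.9 in BCL11b+ID2+ and 7.94 ± 8.77 in BCL11b+ID2-. The Tnfrsf11a call was lost without single libraries, with adjusted p up to 0.193 without BCL11b+ID2- replicate 2. The lower members were Tcf7 and Tox.

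NK and ILC1 genes showed 7 of 28 called higher and 1 lower. Klrk1 (NKG2D) had 116, 123 and 121 normalised counts in BCL11b+ID2+ libraries, against 3.47, 1.07 and 4.61 in BCL11b+ID2- libraries. Klrb1b, a receptor of the NKR-P1 family, had 85.5, 96.2 and 87.7 against 1.74, 0 and 0.922. Members of the Klr families resemble each other in sequence, and reads may be shared between them. Both genes stood far higher in the BCL11b-ID2+ population, at 1469 for Klrk1 and 1573 for Klrb1b. Gzmb, a granzyme, had 90.8, 26.5 and 100.2 against 0, 1.07 and 0.922, and Itga2, the integrin CD49b, averaged 274 ± 72.6 against 14.5 ± 8.70. The signalling adaptors Fcer1g and Tyrobp averaged 149.7 and 58.0 in BCL11b+ID2+ against 10.7 and 8.53 in BCL11b+ID2-. Macrophages express both adaptors, and the part of the macrophage marker sums in their difference was not tested. The Tyrobp call was absent in both fits of only the 6 libraries (adjusted p up to 0.0668). Ncr1 (NKp46) and Tbx21 (T-bet), which define NK cells and ILC1s, were near 0, at 3.31 and 1.63 in BCL11b+ID2+ against 0.307 and 0 in BCL11b+ID2-, and were not called.

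Gzma (chromosome 13, 113093825 to 113100981), granzyme A, was the member of the NK and ILC1 list called lower. It had 71.2, 48.6 and 113 normalised counts in BCL11b+ID2+ libraries, against 5371, 4333 and 5200.3 in BCL11b+ID2- libraries. The log2 difference was -6.06 ± 0.31 (adjusted p = 9.34e-12), a 63.9-fold difference of means. Cpa3, carboxypeptidase A3, known from mast cells and early progenitors, had 40.9, 35.4 and 9.23 against 1008, 812 and 608. Of the 11 mast-cell, erythroid and megakaryocyte markers, 3 had no read in any of the 6 libraries, the mast-cell receptor genes Ms4a2 and Fcer1a among them. The source of the Cpa3 difference was not tested. Ighm, the immunoglobulin mu heavy chain gene, had 24.9, 45.3 and 31.7 in BCL11b+ID2+ libraries against 2143, 1813 and 1164 in BCL11b+ID2- libraries.

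The other genes among the 15 largest differences on the higher side had few or no reads in BCL11b+ID2-. Across the 15 genes, 8 had no read in any BCL11b+ID2- library. Stab2 (chromosome 10, 86841198 to 87008025), an endocytic receptor best known from sinusoidal endothelium, had 641, 967 and 750.5 normalised counts in BCL11b+ID2+ libraries, against 0, 0 and 5.53 in BCL11b+ID2- libraries. Pard3, a cell polarity scaffold, averaged 354 ± 157 and Neurl3, a ubiquitin ligase, 281 ± 64.7, with no read in BCL11b+ID2-, at least 306-fold and 243-fold higher. Pde7b, a cyclic AMP phosphodiesterase, averaged 272 ± 57.4, Rnf128 (GRAIL), a ubiquitin ligase of T-cell anergy, 258 ± 38.8, and Hs3st1, a heparan sulfate sulfotransferase, 151 ± 63.6, again with no read in BCL11b+ID2-. Dlg5, a scaffold protein, averaged 125 ± 21.3 and Bmp2, a bone morphogenetic protein, 121 ± 41.3, also without a read in BCL11b+ID2-. Bmp2 was not called by DESeq2 (adjusted p = 0.109). Mrc1, the mannose receptor CD206 of macrophages, had 285, 109 and 222 against 0, 4.28 and 0.

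The other genes among the 15 largest differences on the lower side had means of 117 to 1066 in BCL11b+ID2-. St8sia1, a sialyltransferase, had 8.90, 22.1 and 9.23 normalised counts in BCL11b+ID2+ libraries, against 748, 1193 and 1257 in BCL11b+ID2- libraries. Slc16a5, a monocarboxylate transporter family member, had 3.56, 1.11 and 5.94 against 361, 386 and 398. Gfra1, a receptor for GDNF, averaged 1.84 in BCL11b+ID2+ and 246 ± 118 in BCL11b+ID2-, and Ephb2, an ephrin receptor, averaged 0.369 and 118 ± 37.9. Fam167a averaged 4.67 against 236 ± 100.1, Dzip1 0.957 against 139 ± 106, Zbtb8b 0.659 against 131 ± 58.3, Arfgef3 0.593 against 117 ± 72.2 and Wnt8b, a Wnt ligand, 1.03 against 138 ± 131. Iqch had no read in BCL11b+ID2+ and 234, 84.6 and 67.3 in BCL11b+ID2- libraries, and was not called by DESeq2 (adjusted p = 0.245). Iqch, Wnt8b and Dzip1 were each highest in BCL11b+ID2- replicate 1, the library that stood apart, at 234, 288 and 260.3.

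Of 32 cell cycle genes 1 was called higher and 2 lower, against 5.12% higher and 3.61% lower over all genes. Their median log2 difference was -0.33. Cdkn1a, the cell cycle inhibitor p21, had 125, 172 and 43.5 normalised counts in BCL11b+ID2+ libraries, against 1.74, 0 and 0 in BCL11b+ID2- libraries (log2 difference 6.15 ± 0.75, adjusted p = 7.3e-06). Mki67, a marker of cycling cells, averaged 2646 against 3566 and was not called (adjusted p = 0.195). Top2a and Cdk4 were called lower at 1.45 and 1.79-fold, and both calls were lost without single libraries, with adjusted p up to 0.209 and 0.215, each without BCL11b+ID2+ replicate 1. Of 16 glycolysis genes, Ldha was 2.0-fold, Aldoa 1.70-fold and the glucose transporter gene Slc2a1 2.49-fold higher, while Slc2a3 was 4.18-fold lower. The calls of Aldoa, Slc2a1 and Slc2a3 were lost without single libraries, with adjusted p up to 0.143 (Aldoa, without BCL11b+ID2+ replicate 4), 0.254 (Slc2a1, without BCL11b+ID2- replicate 1) and 0.129 (Slc2a3, without BCL11b+ID2- replicate 2).

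The GIMAP GTPases, a lymphocyte survival family clustered on chromosome 6, gave 3 of 8 called lower. Gimap4 had 199, 46.4 and 33.6 normalised counts in BCL11b+ID2+ libraries against 357, 598 and 529 in BCL11b+ID2- libraries, and Gimap6 and Gimap8 were 8.05-fold and 13.6-fold lower. TNF and TNF receptor family genes gave 4 of 22 higher and 1 lower, and Fasl, the ligand of the death receptor Fas, averaged 30 in BCL11b+ID2+ against 0.307 in BCL11b+ID2-, while Tnfrsf26 was 4.72-fold higher. Progenitor genes gave 4 of 18 higher, among them Spi1 (PU.1), at 62.3, 23.2 and 8.57 against 0, 0 and 0.922, and Mef2c, at a mean of 16.6 against 1.29. The Mef2c call was lost without single libraries, with adjusted p up to 0.0710 without BCL11b+ID2+ replicate 1. Spi1 is also a macrophage factor and was highest in BCL11b+ID2+ replicate 1, the library with the highest macrophage marker sum, 1636, and its part in the Spi1 difference was not tested. Lin28b, an RNA-binding protein of fetal progenitors, averaged 7.24 ± 3.72 in BCL11b+ID2+ and 111 ± 35.0 in BCL11b+ID2-.

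The summed normalised count of immediate early and dissociation stress genes was 5964, 10623 and 8730 in BCL11b+ID2+ replicates 1, 2 and 4, against 2685, 4407 and 5671 in BCL11b+ID2- replicates 1, 2 and 4. Of 19 tested members 3 were called, all higher. Zfp36, which encodes the RNA-binding protein tristetraprolin, averaged 1875 ± 842 against 564 ± 52.4, Junb averaged 277 ± 53.0 against 80 ± 65.3, and Dusp1 had 643, 1219 and 1326 against 220.4, 294 and 644. The Dusp1 libraries overlapped by a narrow margin. All 3 calls were lost without single libraries, with adjusted p up to 0.0741 (Zfp36, without BCL11b+ID2+ replicate 2), 0.258 (Junb) and 0.163 (Dusp1), the last ones without BCL11b+ID2- replicate 1. The part of these genes in the other differences was not tested.

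Macrophage markers were present in BCL11b+ID2+ and nearly absent in BCL11b+ID2-. Of 11 tested markers 9 were called higher. Csf1r, the receptor for colony stimulating factor 1, had 217, 92.9 and 128 normalised counts in BCL11b+ID2+ libraries, against 0, 3.21 and 0 in BCL11b+ID2- libraries. The complement genes C1qa, C1qb and C1qc, which lie together on chromosome 4, averaged 99.7, 174 and 198 in BCL11b+ID2+ against 1.84, 13.8 and 5.46 in BCL11b+ID2-. Cd68 had 361, 76.3 and 113 against 0, 11.8 and 0.922. Adgre1 averaged 70.9 and Fcgr1 23.0 in BCL11b+ID2+, against 1.74 and 0. The C1qa call was absent under DESeq2 (adjusted p = 0.0524) and the Fcgr1 call under edgeR (adjusted p = 0.0592). The calls of Lyz2 and C1qb were lost without single libraries, with adjusted p up to 0.134 (Lyz2, without BCL11b+ID2+ replicate 2) and 0.0665 (C1qb, without BCL11b+ID2+ replicate 1). Selenop, a secreted selenoprotein that macrophages also make, had 920.4, 986 and 1046 against 210.0, 215 and 237. BCL11b+ID2+ replicate 1 was the library with the highest marker sum. Without it, 11 of the 20 tested ILC2 receptors and 6 of the 13 effectors were called higher. In that fit 10 of 27 CD3 and signalling genes and 9 of 20 gamma and delta segments were called lower. The remaining BCL11b+ID2+ libraries had marker sums of 643 and 747, against at most 62.1 in BCL11b+ID2-. Leaving replicate 1 out therefore keeps the macrophage difference, and its part in these calls was not tested.

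Marker sums of other cell types differed between the populations as well. The summed normalised count of the mast-cell, erythroid and megakaryocyte markers was 62.3, 135 and 46.2 in BCL11b+ID2+ replicates 1, 2 and 4, against 1020.4, 836 and 626 in BCL11b+ID2- replicates 1, 2 and 4. Of 8 tested members 1 was called, Cpa3, which makes up most of the BCL11b+ID2- sums. The epithelial and stromal sum was 351, 213 and 180.7 in BCL11b+ID2+ replicates 1, 2 and 4, against 977, 546 and 561 in BCL11b+ID2- replicates 1, 2 and 4. The part of both sums in the other differences was not tested. Of 8 dendritic-cell markers 1, Xcr1, was called higher. Of 6 epithelial and stromal markers 1, Pecam1, was called lower, at 158 against 503. Pecam1 makes up most of the average epithelial and stromal sum in each population, and the median log2 difference of the list was -0.29. The Pecam1 call was lost without single libraries, with adjusted p up to 0.138 without BCL11b+ID2- replicate 1. Without BCL11b+ID2- replicate 1, the library that stood apart, 12 of 20 ILC2 receptors and 6 of 13 effectors were called higher, and 9 of 27 CD3 and signalling genes and 9 of 20 gamma and delta segments were called lower.

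**Figure D4:**
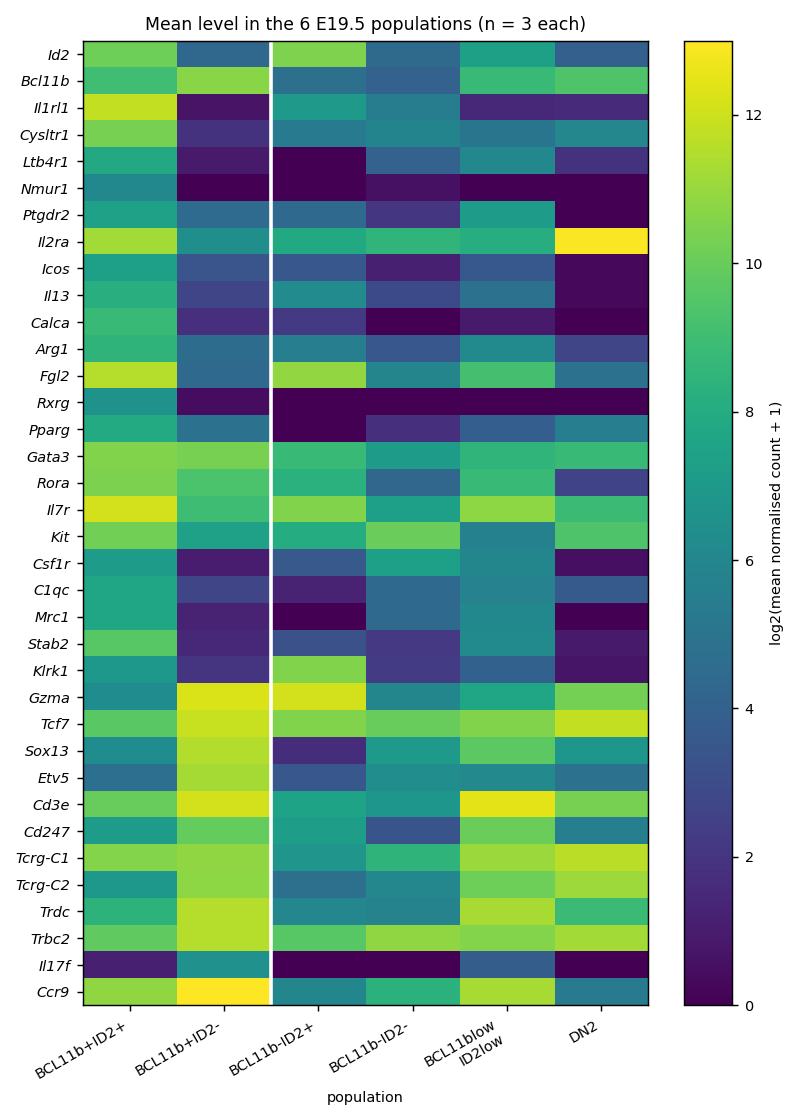
Mean level, as log2(mean normalised count + 1), of 36 genes (rows) in the 6 E19.5 populations (columns, 3 libraries each), with BCL11b+ID2+ and BCL11b+ID2- left of the white line. The ILC2 receptor rows are brighter in BCL11b+ID2+ than in BCL11b+ID2-, and the T-cell rows the other way, with Tcrg-C1 nearly the same in both. Il2ra is brighter still in DN2, and Gzma is bright in both BCL11b+ID2- and BCL11b-ID2+.

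The interaction asks whether the ID2 difference is the same among BCL11b-positive as among BCL11b-negative DN1 cells. It was called for 1284 of 13840 genes (9.28%), positive for 633 (4.57%) and negative for 651 (4.7%), and for 445 of the 1208 genes called between BCL11b+ID2+ and BCL11b+ID2- (36.8%). Of these 445 genes, 275 were higher and 170 lower in BCL11b+ID2+. For 345 of them the estimate among BCL11b-negative cells did not share the sign. That count includes genes with an estimate of 0 there, such as Rxrg and Trdv5. Among the 15 largest differences on each side the interaction was called for 14 higher and 8 lower genes. The interaction contains the difference that selected the 1208 genes and the 15 largest, so these counts follow in part from that selection. Cysltr1 averaged 39.8 in BCL11b-ID2+ and 57.9 in BCL11b-ID2-, while its BCL11b+ID2+ mean was 1301 and its BCL11b+ID2- mean 2.71 (interaction log2 9.59, adjusted p = 2.54e-07). Il2ra, at 234 and 358, and Kit, at 266 and 1057, gave interactions of 5.33 and 4.87. Itga4 averaged 662 in BCL11b-ID2+ and 3315 in BCL11b-ID2-, an interaction of 4.95.

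Among the genes called between BCL11b+ID2+ and BCL11b+ID2-, Gzma, Cd247, Thy1, Ighm and Rasgrp1 had the smallest interaction p-values on the negative side. Larger negative values than those of Cd247, Thy1, Ighm and Rasgrp1 stood elsewhere, among them -10.56 for 5830411N06Rik, -8.94 for Slc16a5 and -7.79 for Iqch. Gzma averaged 4394 in BCL11b-ID2+ and 62.4 in BCL11b-ID2-, the reverse of its order among BCL11b-positive cells, and its interaction of -12.18 had an adjusted p of 8.84e-15. Cd247 averaged 156 in BCL11b-ID2+ and 9.38 in BCL11b-ID2- (interaction -6.89), Thy1 2768 and 126 (-6.02), Ighm 900.0 and 737 (-5.90) and Rasgrp1 796 and 49.5 (-5.59). Thy1, a surface protein of T cells, averaged 1256 ± 199.6 in BCL11b+ID2+ and 3539 ± 527 in BCL11b+ID2-. For Il7r the interaction was not called, with 1472 in BCL11b-ID2+ and 160.1 in BCL11b-ID2- (adjusted p = 0.983).

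**Figure D5:**
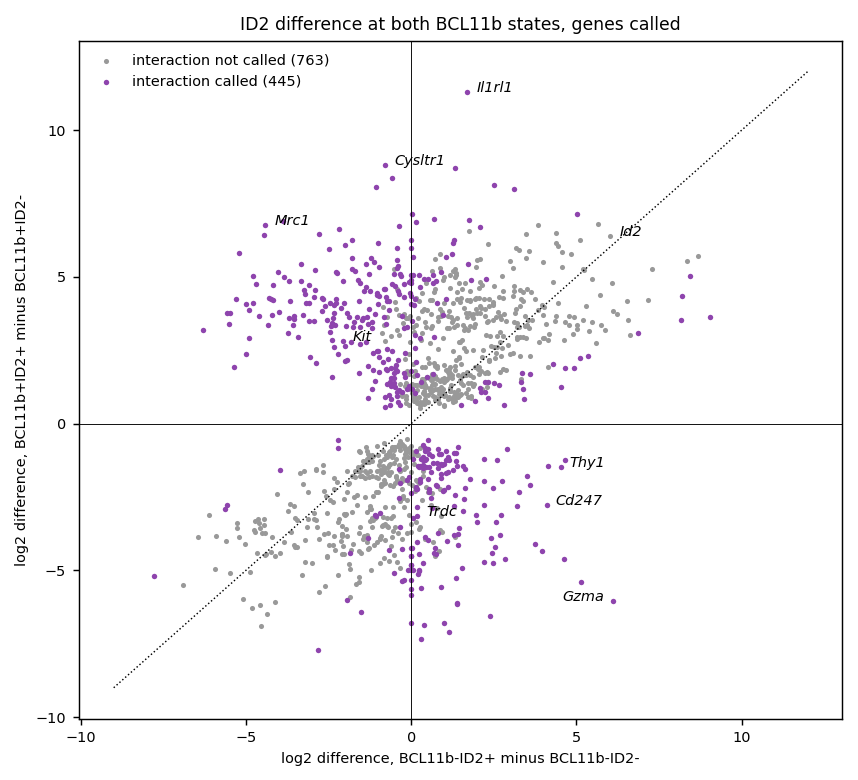
Log2 difference between the ID2-positive and ID2-negative gates among BCL11b-positive cells (vertical axis) and among BCL11b-negative cells (horizontal axis) for the 1208 genes called among BCL11b-positive cells, with the 445 genes whose interaction was called in purple and a dotted line where both differences are equal. Il1rl1 and Cysltr1 lie high near the vertical axis and Gzma lies in the lower right quadrant.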

How the data were processed

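RNA was amplified from sorted cells and sequenced, per the labels. Per the submitters' processing notes, Trim Galore 0.50, STAR 2.6.0a, DESeq2 1.18.1 and GRCm38 were used. The authors deposited a table of normalised read counts, a signal value per gene and library; dividing by the value of 1 read returned whole reads within 0.01 for 100% of values. Genes that reached 10 normalised counts in 3 or more libraries were tested with limma 3.58.1 (R 4.3.3; trend and robust variance) on log2(value + 1), over all 18 E19.5 libraries with 12 residual degrees of freedom, with Benjamini-Hochberg adjustment and a threshold of 0.05. The interaction used the same fit. A gene with no read in a population was set at a floor of 3 reads over that population, and the floors and 95% intervals cover counting error only. edgeR 4.0.16 and DESeq2 1.42.0 on the recovered reads, other scalings, filters and pseudocounts, and each library left out were alternatives. Named genes were the 15 largest differences in each direction (called, without overlap, mean of at least 100, without predicted, mitochondrial and ribosomal protein genes), list members and the sorted genes. The genes with the 5 smallest interaction p-values in each direction, among genes called in the comparison, were named too. Genes and lists were chosen with earlier results of these data known. The steps were tested on simulated data.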

Additional observations from a re-analysis of the deposited data

Results flagged for a closer look

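For the genes below, the ID2 difference among BCL11b-positive cells departed from that among BCL11b-negative cells by the limma interaction test. Each value is the log2 difference between BCL11b+ID2+ and BCL11b+ID2- minus that between BCL11b-ID2+ and BCL11b-ID2-. All were chosen among genes called between BCL11b+ID2+ and BCL11b+ID2-, a difference that the interaction contains. Among genes higher in BCL11b+ID2+, the interaction was 9.62 for Il1rl1, 9.59 for Cysltr1, 10.79 for Ltb4r1, 5.33 for Il2ra, 4.87 for Kit and 4.95 for Itga4. It was 5.21 for Calca, 2.1 for Fgl2, 6.73 for Bmp2, 11.20 for Mrc1 and 4.16 for Selenop. It was 7.38 for Stab2, 8.96 for Pard3, 5.60 for Neurl3, 9.13 for Pde7b, 4.89 for Rnf128, 7.14 for Hs3st1 and 6.27 for Dlg5. Macrophage markers differed in the opposite direction between the BCL11b-negative gates, where their summed normalised count was 78.4, 51.4 and 92.7 in BCL11b-ID2+ replicates 1, 2 and 4, against 2186, 3333 and 2186 in BCL11b-ID2- replicates 1, 2 and 4. The part of these sums in the interactions was not tested.

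Among genes lower in BCL11b+ID2+, the interaction was -12.18 for Gzma, -6.89 for Cd247, -6.02 for Thy1, -5.59 for Rasgrp1 and -5.90 for Ighm. It was -4.90 for Etv5, -6.80 for Trdv5, -7.79 for Iqch, -8.94 for Slc16a5, -4.89 for Zbtb8b, -7.53 for Arfgef3 and -5.82 for Wnt8b. Trdv5 had a difference of 0 between the BCL11b-negative gates, so its interaction repeats its difference among BCL11b-positive cells. Wnt8b likewise had -5.82 for both. Under DESeq2 the interactions of Bmp2 and Iqch were not called (adjusted p = 0.348 and 0.244).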

How the results depend on the processing

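The count of called genes, 1208, lay between 817 and 1074 with single libraries left out, and no gene called in the comparison changed sign under any alternative run. It was 954 with edgeR, 1384 with DESeq2, 1338 with a pseudocount of 8, 1132 with no filter, 1218 with TMM scaling, 1280 with library weights and 988 with only the 6 libraries compared. Interaction calls, 1284, lay between 949 and 1216 with single libraries left out. Same-numbered BCL11b+ID2+ and BCL11b+ID2- libraries deviated together with correlations of 0.072, 0.023 and 0.084. Over all E19.5 populations, the 45 pairs of the same number had correlations of 0.002 to 0.129 (median 0.054). The 90 pairs of other numbers had -0.105 to 0.035 (median -0.020). Same-numbered libraries thus deviated together weakly, what they share is not stated, and the main fit did not pair them. A replicate block gave 1433 calls, 830 higher and 603 lower. With only the 6 libraries the block gave 992, an alternative chosen after seeing the data. Of 169 named genes called, 119 kept the call under all 15 alternatives; 18 to 28 lost it with any 1 library left out. Of 31 named genes not called, 12 were called under at least 1 alternative. Among uncalled genes, Trdv4 was -0.0611 with edgeR, -0.0956 with DESeq2 and -0.15 with library weights and ranged from -0.44 to 0.59 with single libraries left out, while Zbtb16 ranged from -0.64 to 0.19 and Rag1 from -0.0398 to 0.28, all on the log2 scale. The uncalled Sox13 interaction was 0.43 with edgeR and 0.59 with DESeq2, and ranged from -1.70 to 0.47 with single libraries left out. The cause was not tested.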
